A study of Mus musculus with 9 samples.

Results

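The arrays described here are the 3 that carry replicate number 1 in their titles, out of 9 arrays of RNA from mouse NIH 3T3 cells, an established embryonic fibroblast line. They comprised 1 array from each of 3 agent groups, and they were set against the other 6, which carry the numbers 3 and 7. Number 1 was singled out with these values known, so its differences from numbers 3 and 7 are given below as descriptions of these arrays and are not tests.

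All cultures were grown in DMEM, were starved of serum and received the translation inhibitor cycloheximide at 3 µg/ml for 2 h. The control group received no further agent. A second group received cytochalasin D, which binds actin and frees the cofactor MRTF from actin monomers, at 2 µM for 90 min. The third group, called the double-drug group, received latrunculin B, which sequesters actin monomers, at 5 µM together with cytochalasin D; its sample titles name latrunculin B alone, while its agent label names both drugs. The series design describes 3 independent biological replicates per condition, but the labels do not say what a number marks, whether a thaw, a day or a batch of arrays. One line in dishes was used throughout, and the length of the serum starvation is not given in the sources used here.

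Fibroblasts deprived of serum leave the cell cycle and shut down the genes of DNA replication and mitosis, which are switched on again when cells are driven back into cycle. Many mitotic genes are held off in resting cells through a short promoter motif, the cell cycle genes homology region (CHR), that usually lies near CCAAT boxes. Serum, actin signals and cAMP acting through CREB also drive the immediate-early genes, among them the Nr4a nuclear receptors, and shortage of amino acids acts through the factor ATF4 on genes of amino acid synthesis and tRNA charging.

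Promoters of 5 genes are shown because they hold motifs known from the groups described below: the mitotic genes Ube2c and Cdk1 and the tRNA synthetase gene Aars were higher in number 1, and the receptor genes Nr4a1 and Nr4a2 were lower. They were picked for holding these motifs and are not typical of their groups: the same windows of Birc5, Plk1, Cenpa and Aurka held no CHR, and those of Psph, Phgdh, Psat1 and Mthfd2 no CARE. Each run holds the 250 bases before the transcription start, from RefSeq on GRCm38.p6, with the motifs in capitals. Capitals mark the CHR (TTTGAA) and the CCAAT box (CCAAT) in Ube2c and Cdk1, the amino acid response motif CARE (TGATGNAA) in Aars, and the half-site of the cAMP response element (TGACG) in Nr4a1 and Nr4a2. Both strands were searched, so a motif may appear as its reverse complement, and in Ube2c an overlapping pair of CCAAT boxes on opposite strands forms 1 run of capitals.
Ube2c (chr2:164769679-164769928, plus strand): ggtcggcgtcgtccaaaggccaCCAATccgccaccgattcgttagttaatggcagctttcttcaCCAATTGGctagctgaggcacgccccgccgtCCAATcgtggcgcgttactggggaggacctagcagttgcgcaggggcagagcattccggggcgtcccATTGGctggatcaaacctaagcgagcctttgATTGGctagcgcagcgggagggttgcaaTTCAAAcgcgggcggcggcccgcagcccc
Cdk1 (chr10:69352913-69353162, minus strand): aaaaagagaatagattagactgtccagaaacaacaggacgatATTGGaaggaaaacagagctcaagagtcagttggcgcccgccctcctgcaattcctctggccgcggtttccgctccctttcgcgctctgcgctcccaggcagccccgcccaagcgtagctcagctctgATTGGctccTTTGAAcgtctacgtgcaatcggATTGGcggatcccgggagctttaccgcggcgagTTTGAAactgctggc
Aars (chr8:111033592-111033841, plus strand): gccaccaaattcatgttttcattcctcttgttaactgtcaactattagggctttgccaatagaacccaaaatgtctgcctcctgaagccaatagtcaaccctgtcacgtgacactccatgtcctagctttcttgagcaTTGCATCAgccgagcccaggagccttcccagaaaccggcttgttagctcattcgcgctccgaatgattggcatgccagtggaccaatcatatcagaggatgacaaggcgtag
Nr4a1 (chr15:101266596-101266845, plus strand): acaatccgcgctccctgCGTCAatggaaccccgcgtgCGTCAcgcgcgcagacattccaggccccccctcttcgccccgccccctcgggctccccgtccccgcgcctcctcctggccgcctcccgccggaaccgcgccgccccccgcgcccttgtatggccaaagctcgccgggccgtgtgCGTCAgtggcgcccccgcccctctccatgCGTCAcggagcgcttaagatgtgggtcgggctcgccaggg
Nr4a2 (chr2:57124004-57124253, minus strand): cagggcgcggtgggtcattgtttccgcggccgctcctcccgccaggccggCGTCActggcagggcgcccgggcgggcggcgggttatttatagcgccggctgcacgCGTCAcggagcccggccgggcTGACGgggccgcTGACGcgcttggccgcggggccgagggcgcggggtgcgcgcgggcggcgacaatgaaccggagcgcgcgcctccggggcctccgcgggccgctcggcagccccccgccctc

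Of the 12651 tested genes, 10182 had a promoter in the RefSeq table. The CHR was found in 13.2% of these and in 10 of the 26 matched genes of the mitosis list (38.5%). The CCAAT box was found in 40.7% of all and in 23 of the 26 (88.5%). Among the mitosis genes past the threshold in number 1, 3 of 10 held a CHR (30.0%) and 8 of 10 a CCAAT box (80.0%), shares no higher than in the whole list. CARE was found in 2.46% of all promoters and in 7 of 24 (29.2%) of the ATF4 list, and in 2 of the 7 matched genes past the threshold (28.6%). The TGACG half-site, which is also part of the full element TGACGTCA, was found in 29.5% of all promoters. Nr4a1, Nr4a2 and Nr4a3 each had 4 half-sites. At least 4 stood in 37 promoters (0.363%), but this cut equals the count of those genes, so the share is no test of them. These matches describe letters in a window and say nothing of what binds there.

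A number is on the log2(intensity + 16) scale wherever a log2 difference is given, and a probe set (the array's unit for 1 transcript) counted as past the threshold at an adjusted p under 0.05 in limma. Number 1 passed it for 3457 of 27010 probe sets (12.8%), of which 1745 were higher (6.46%) and 1712 lower (6.34%). The rule used this contrast, so nothing is read from these shares. The fit also took the arrays of 1 number as independent of each other. Its p-values and standard errors (SE), here and below, do not measure the spread between numbers. The median size of those differences was 0.392 on the log2 scale, and 103 higher and 32 lower probe sets reached 2-fold. With 1 probe set per gene, the brightest, 5.25% of genes were higher and 8.59% lower, and these are the shares beside which the gene lists below stand. Replicate number accounted for 49% of the variance over all tested probe sets and the agent group for 35.3%. Across the 3 agent groups number 1 lay beyond both other numbers on the same side for 8020 probe sets (29.7%), 4397 above (16.3%) and 3623 below (13.4%).

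For most probe sets past the threshold number 3 lay between the other numbers. Its mean stood between those of numbers 1 and 7 for 2526 of the 3457 (73.1%). All 3457 had number 1 outermost in each agent group, so only number 3 or 7 could lie between. Over all tested probe sets, where any number could, the share was 56.8%, so nothing is read from the gap between these shares. The cytochalasin D array of number 3 came nearest to number 1: over the probe sets that were higher, the number 1 array of its agent group exceeded it by a median of 0.34, against 0.404 to 0.498 for the other arrays of numbers 3 and 7. Over the lower ones the median was -0.255, against -0.354 to -0.398. Leaving this array out raised the count to 4966.

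The count rested on single arrays to a large degree. It fell to 517 without the control array of number 1, to 1668 without the cytochalasin D array and to 643 without the double-drug array. Leaving out an array of number 3 or 7 gave 2193 (control, number 3), 1722 (double-drug, number 3), 2058 (control, number 7), 2479 (cytochalasin D, number 7) and 1566 (double-drug, number 7). Among the 198 genes chosen by the naming rule, 126 were past the threshold, and 27 of these stayed past it in all 9 such fits. None of the 198 changed direction in a way that crossed the threshold under any setting tried. The 27 include Septin10, Ccn4, Med13, Cth, Kdm6b, Ube2c, Cdk1, Birc5, Kif20a, Dut, Uhrf1, Rrm1, Phgdh, Nars, Hexa, Ctsa and Atp6v0d1, and for the other named genes the threshold was lost without at least 1 array.

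The control probe sets of the array also differed between the numbers. Probe sets for the bacterial transcripts dap, lys, phe and thr, which are commonly spiked into RNA before labelling, give a 3′ over 5′ intensity ratio that does not depend on the cells. The phe ratio was 1.17, 1.38 and 1.36 in number 1 (control, cytochalasin D, double-drug, the order kept in every sentence of array values), 1.75, 1.66 and 1.84 in number 3, and 2.0, 2.28 and 2.29 in number 7. The lys ratio was 2.83, 2.71 and 2.75 in number 1 and 3.44 to 4.12 in the other 6 arrays, so both ratios were lower in number 1 without overlap. For dap the ratio was 1.86 to 1.92 in number 1 and 1.92 to 2.29 in the others, and for thr the ranges overlapped (1.56 to 1.88 against 1.48 to 1.87). In an exact two-sided permutation test within agent groups, dap, lys and phe each reached p = 0.037, the smallest that its 27 arrangements can give. Adjusted over 12 control measures, this permutation p was 0.055. The test moved single arrays and so took the arrays of 1 number as independent of each other. It does not measure the spread between numbers. For RNA of the cells themselves, the Actb ratio was 1.64, 1.47 and 1.61 in number 1 and 1.47 to 2.1 in the others (exact permutation p = 0.111), and the Gapdh ratio was 0.77, 0.795 and 0.778 against 0.785 to 0.834 (exact permutation p = 0.074). The cytochalasin D array of number 3 lay within or next to the range of number 1 for Actb (1.47), Gapdh (0.785) and dap (1.92). The summed level of the spiked transcripts (geometric mean over 24 probe sets) was 478 to 536 in number 1 and 295 to 486 in the others. The part of these control differences in the gene differences below was not tested.

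**Figure D1:**
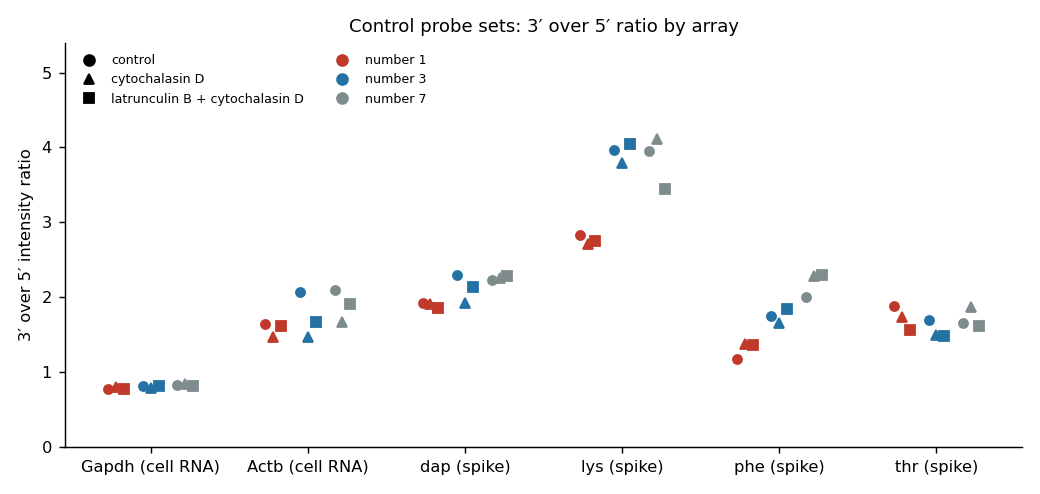
Ratio of the 3′ to the 5′ control probe set on a linear axis, for 2 cellular transcripts and 4 spiked transcripts, with 1 point per array, colour giving the replicate number and shape the agent group. The number 1 points for lys (2.71 to 2.83) and phe (1.17 to 1.38) lie below all points of numbers 3 and 7, and those for thr overlap them.

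Genes of mitosis were higher in number 1. Of 33 tested members of the mitosis list 15 were past the threshold and higher (45.5%, against 5.25% of all genes), none was lower, and all 33 had a positive difference, with a median of 0.357 on the log2 scale against 0.0066 for all probe sets. Summed over the list, intensity was 26390 to 27600 in the arrays of number 1 and 17810 to 21940 in the other 6. In bulk RNA, more cells in mitosis and more mitotic RNA per cell cannot be told apart.

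Ube2c, which encodes the ubiquitin-conjugating enzyme of the anaphase-promoting complex, read 1371, 1367 and 1302 in number 1, 721, 808 and 716 in number 3 and 758, 752 and 776 in number 7. All 3 values of number 1 lay far above the other 6, which were close to each other, and the log2 difference was 0.82 (SE 0.04). Cdk1, the kinase that drives entry into mitosis, read 2037, 1959 and 2068 in number 1, 1525, 1381 and 1445 in number 3 and 1541, 1438 and 1541 in number 7, again with no overlap and a difference of 0.45 (SE 0.03). Birc5 (survivin, a subunit of the chromosomal passenger complex) read 1505, 1388 and 1194 in number 1, 817, 830 and 740 in number 3 and 816, 740 and 804 in number 7, a difference of 0.77 (SE 0.06). Among the motor proteins of the spindle, Kif20a differed by 0.76 (SE 0.08), and Kif11 by 0.94 (SE 0.10), with all 3 of its probe sets higher. Ccna2 (cyclin A2, 0.45), the kinases Aurka (0.58) and Plk1 (0.50), the spindle factor Tpx2 (0.48) and the centromeric histone Cenpa (0.60) were past the threshold as well.

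Not every mitotic gene stood apart. Ccnb2, a cyclin of Cdk1, differed by 0.07 (SE 0.10), and Cdc20, the activator of the anaphase-promoting complex, by 0.07 (SE 0.06). The proliferation marker Mki67 read 799, 746 and 878 in number 1, 820, 459 and 522 in number 3 and 695, 795 and 677 in number 7, so its control array of number 3 lay above 2 of the number 1 arrays, and its difference of 0.31 (SE 0.20) did not pass the threshold. The count of 15 became 4 without the control array of number 1, 7 without its cytochalasin D array and 8 without its double-drug array, 9 without the control or the double-drug array of number 3, and 17 without the cytochalasin D array of number 3.

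Genes of the G1/S transition and of DNA replication were higher to a smaller degree. Of 36 tested, 8 were past the threshold and higher (22.2%), none was lower, and the median was 0.16. Summed intensity was 32580 to 33770 in number 1 and 25540 to 31160 in the others. The genes past the threshold included those that supply nucleotides: Tk1 (thymidine kinase) read 563, 546 and 470 in number 1, 297, 316 and 295 in number 3 and 328, 292 and 345 in number 7, a difference of 0.72 (SE 0.08); Rrm1 (the large subunit of ribonucleotide reductase) differed by 0.51 (SE 0.05), and Dut (dUTPase) by 0.53 (SE 0.04). Uhrf1, which carries DNA methylation through replication, read 573, 619 and 590 in number 1, 372, 342 and 299 in number 3 and 372, 381 and 358 in number 7, a difference of 0.73 (SE 0.07). Cdc45, a subunit of the replicative helicase, differed by 0.52 (SE 0.07), and Mcm3 and Gins2, of the same helicase, by 0.51 and 0.49.

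On their brightest probe sets the other subunits of the MCM ring did not pass the threshold, with differences of 0.03 for Mcm2, 0.13 for Mcm4, 0.10 for Mcm5, 0.17 for Mcm6 and 0.12 for Mcm7. Of the 2 probe sets of Mcm5, 1 was past the threshold and higher. E2f1, whose product switches on S phase genes, differed by 0.07 (SE 0.04). The count of 8 became 3, 4 and 4 without the control, cytochalasin D or double-drug array of number 1, 5 without the double-drug array of number 3 and 5 without the control array of number 7. Of the 22 tested cyclins, CDK inhibitors and Rb family genes none was higher. The 2 lower ones (9.09%, against 8.59% of all genes) were Ccng2 (-0.47) and Skp2 (-0.42). Of the 5 probe sets of Skp2, 2 were lower and 1 was higher. Ccnd1 (cyclin D1), at 0.41 (SE 0.10), Cdkn1a (p21), at 0.07 (SE 0.24), and Cdkn1b (p27), at 0.07 (SE 0.07), did not pass. The mitosis and replication lists also had a positive median for number 7 against number 3 (0.129 and 0.162), with no member of either past the threshold there.

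**Figure D2:**
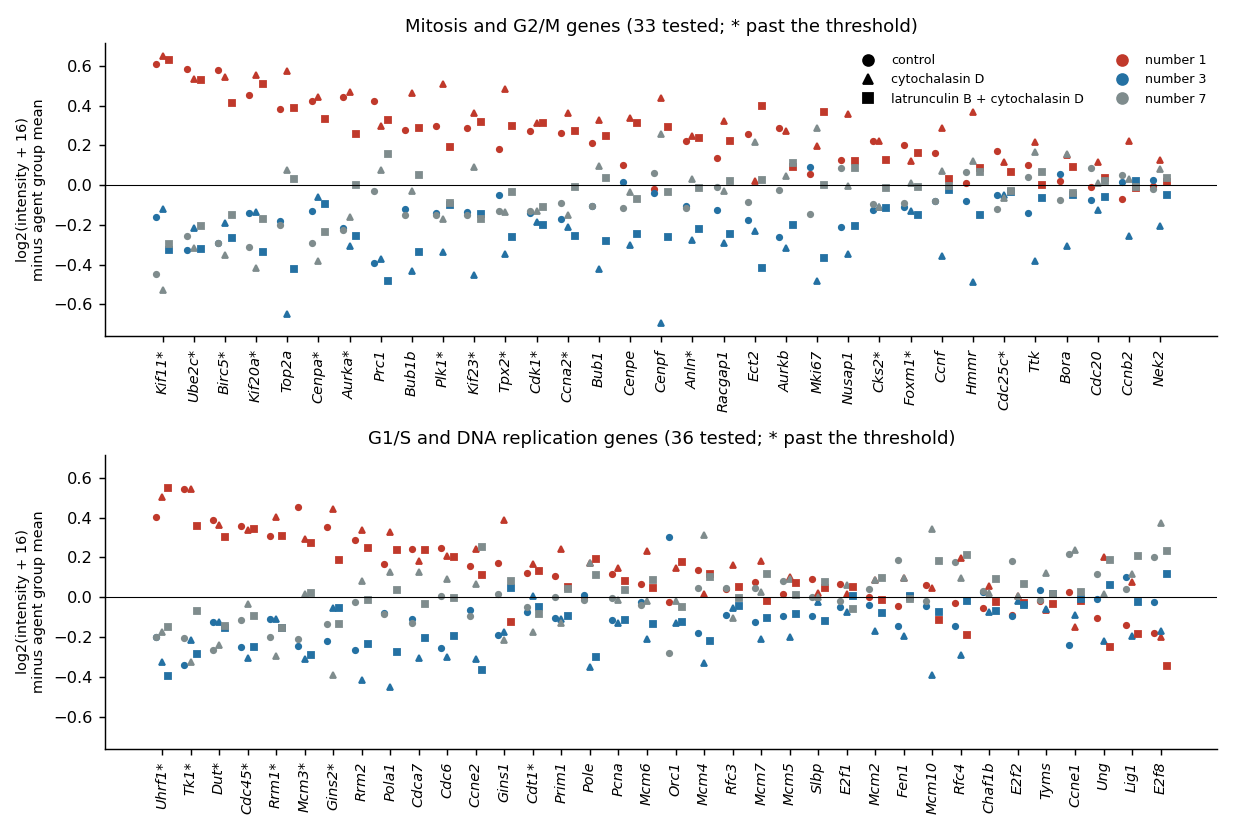
Each column is a gene of the mitosis list (upper) or the G1/S and replication list (lower), ordered by the difference of number 1; points are log2(intensity + 16) of each array minus the mean of its agent group, colour giving the replicate number and shape the agent group. Number 1 lies above the zero line in nearly every column at the left, and the colours mix at the right; 15 of 33 and 8 of 36 genes are starred as past the threshold.

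Genes of amino acid synthesis and tRNA charging were higher in number 1. Of 28 tested genes of the ATF4 list 10 were past the threshold and higher (35.7%, against 5.25% of all genes), none was lower, and the median was 0.245. Summed intensity was 69370 to 74410 in number 1 and 60430 to 66000 in the others. All enzymes of the serine pathway stood among the 10: Psph, which makes serine from phosphoserine, read 2552, 2533 and 2103 in number 1, 1265, 1360 and 1138 in number 3 and 982, 1016 and 1053 in number 7, Phgdh, the first enzyme, read 5419, 5349 and 5501 in number 1, 3932, 4360 and 4031 in number 3 and 4140, 4018 and 4157 in number 7, and Psat1, the middle enzyme, differed by 0.33 (SE 0.04). The difference was 1.07 (SE 0.12) for Psph and 0.40 (SE 0.03) for Phgdh, and neither overlapped with the other arrays. The mitochondrial folate enzymes that use serine, Shmt2 and Mthfd2, differed by 0.33 and 0.57.

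The tRNA synthetase genes Aars (0.40), Nars (0.26), Wars (0.30), Gars (0.21) and Cars (0.44) made up the rest of the 10. Cth, the last enzyme of cysteine synthesis and not on the list, read 1243, 1182 and 1234 in number 1, 587, 646 and 629 in number 3 and 529, 571 and 571 in number 7. Its values in number 1 stood far above all others and the difference was 1.03 (SE 0.06). The transcription factor genes Atf4 (-0.02 (SE 0.02)) and Ddit3 (CHOP, 0.02 (SE 0.06)) did not pass, and neither did the target Asns, asparagine synthetase (0.12 (SE 0.06)). The count of 10 became 2 without the control array of number 1.

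The transferrin receptor gene Tfrc, through which cells take up iron, was higher on all 3 of its probe sets, chosen for mention after its values were seen. The brightest read 1373, 1424 and 1447 in number 1, 888, 787 and 790 in number 3 and 721, 888 and 812 in number 7, a difference of 0.79 (SE 0.07), and the other two differed by 1.31 and 1.18. The array holds 3 further control probe sets along this transcript, and they differed by 1.62 at the 3′ end, 0.79 in the middle and 1.25 at the 5′ end, in each with no overlap between number 1 and the other 6 arrays. On the 5′ one, number 1 read 32.8, 39.6 and 30.9, and the other arrays 10.5 to 18.8.

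Some chaperone and ribosome genes were higher too, while most members of these lists did not pass. Of 14 heat shock genes, 4 were higher (28.6%, against 5.25% of all genes) and 1 lower. The mitochondrial chaperone Hspd1 read 8283, 8193 and 7953 in number 1, 6912, 6757 and 6913 in number 3 and 6863, 6816 and 7030 in number 7, a difference of 0.24 (SE 0.02). Hsph1 (0.30), Hspb8 (0.26, with another of its 3 probe sets lower) and Hspa9 (0.19) were higher too, and Dnajb4 was lower (-0.25). Of 29 ribosome biogenesis genes 4 were higher (13.8%), among them Nop58, a core protein of box C/D snoRNPs (0.55 (SE 0.07)), and 1, Noc4l, was lower (-0.37). Of 34 genes of the respiratory chain and its regulators 5 were higher (14.7%) and 2 lower (5.88%, against 8.59% of all genes). The succinate dehydrogenase subunits Sdhb and Sdhc differed by 0.24 and 0.22, and Ppargc1a, a coactivator of mitochondrial genes, by -0.81 (SE 0.13). Ppargc1a was lower on 1 of its 5 probe sets.

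Lysosomal genes were lower in number 1. Of 27 tested genes of the lysosome and autophagy list 8 were past the threshold and lower (29.6%, against 8.59% of all genes), none was higher, and the median was -0.197. Summed intensity was 73040 to 75540 in number 1 and 79620 to 84500 in the others. Hexa, a subunit of beta-hexosaminidase, read 2301, 2525 and 2320 in number 1, 2773, 3027 and 2821 in number 3 and 2824, 2945 and 2757 in number 7, with no overlap and a difference of -0.26 (SE 0.02). Ctsa (cathepsin A) read 1581, 1612 and 1534 in number 1, 2003, 2229 and 1955 in number 3 and 2060, 2125 and 2137 in number 7, a difference of -0.40 (SE 0.03). Atp6v0d1, of the proton pump, differed by -0.31 (SE 0.04), Grn (progranulin) by -0.42 (SE 0.06), Lamp1, a protein of the lysosomal membrane, by -0.25 (SE 0.04), and Psap, the precursor of the saposins, by -0.31 (SE 0.04).

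Other genes of the lysosome list did not pass. Cathepsin D, encoded by Ctsd, differed by -0.03 (SE 0.06) and Lamp2 by -0.02 (SE 0.05). Tfeb and Tfe3, whose products switch on lysosomal genes, differed by -0.26 (SE 0.11) and -0.27 (SE 0.07). The count of 8 became 3 without the control array of number 1 and 3 without its double-drug array.

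Among 18 clock genes 5 were past the threshold and lower (27.8%) and none higher, with a median of -0.169. The repressor Cry1 read 185, 193 and 205 in number 1, 269, 233 and 299 in number 3 and 242, 242 and 299 in number 7, a difference of -0.41 (SE 0.05). Dbp, an output factor of the clock, read 2046, 1577 and 1636 in number 1, 2950, 1883 and 2424 in number 3 and 3523, 2184 and 2723 in number 7, a difference of -0.55 (SE 0.10). Per3 (-0.72), the repressor Bhlhe40 (-0.60) and the kinase Csnk1d (-0.44) were also lower. Per3 was lower on 1 of its 4 probe sets and Csnk1d on 1 of its 5. The activators Arntl (0.27 (SE 0.11)) and Clock (0.14 (SE 0.06)) did not pass. The count of 5 became 0 without the control array of number 1, 0 without its double-drug array, 2 without its cytochalasin D array, 3, 2, 3, 3 and 1 without the control or double-drug array of number 3 or the control, cytochalasin D or double-drug array of number 7, and 6 without the cytochalasin D array of number 3.

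**Figure D3:**
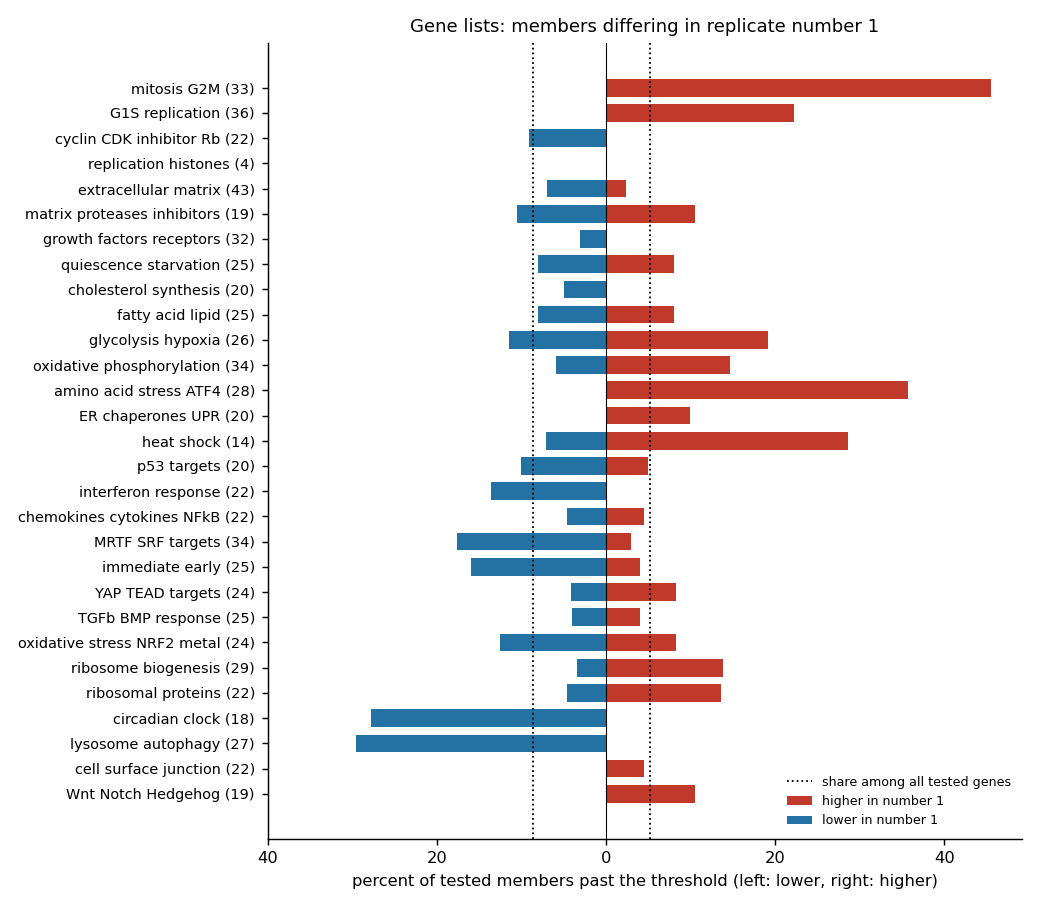
Bars give the percentage of tested members (number in brackets) of each gene list that were past the threshold and higher (right) or lower (left) in number 1; dotted lines mark the shares among all tested genes, 5.25% and 8.59%. The mitosis, ATF4 and heat shock lists reach farthest to the right (45.5%, 35.7% and 28.6%), and the lysosome and clock lists farthest to the left (29.6% and 27.8%).

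Several immediate-early genes were lower in number 1 whichever agent the cells received. Of 25 tested, 4 were past the threshold and lower (16%, against 8.59% of all genes) and 1 was higher (4%, against 5.25%). With no filter on dim probe sets the 4 became 0. The median was -0.214 for number 1 and 0.303 for number 7 minus number 3, so the list also differed between those numbers, with no member past the threshold there. Nr4a1, a nuclear receptor without a known classical ligand, read 440, 2540 and 1682 in number 1, 1288, 4352 and 2901 in number 3 and 1906, 6656 and 4373 in number 7, so that each number 1 array was the lowest of its agent group while cytochalasin D raised the reading in every number. The difference was -1.32 (SE 0.25). Nr4a2 read 112, 106 and 128 in number 1, 266, 174 and 237 in number 3 and 475, 343 and 402 in number 7, a difference of -1.27 (SE 0.30), with 2 of its 5 probe sets lower. Nr4a3 read 6.69, 59.2 and 44.1 in number 1, 59.3, 92.6 and 110 in number 3 and 112, 309 and 246 in number 7 and did not pass (-1.67 (SE 0.44)).

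The zinc finger factor Egr2 read 1731, 7727 and 6335 in number 1, 3049, 11470 and 7727 in number 3 and 3400, 14280 and 8765 in number 7, a difference of -0.66 (SE 0.12), and Maff, a small Maf factor, differed by -0.62 (SE 0.12). Fos read 928, 6341 and 4238 in number 1, 2247, 8073 and 5408 in number 3 and 3230, 11050 and 8185 in number 7; it was lowest in number 1 in each agent group but did not pass (-0.91 (SE 0.26)). Dusp6, a phosphatase that acts on ERK, was the member that was higher, at 0.61 (SE 0.12). Jun (0.00 (SE 0.22)), Junb (0.04 (SE 0.09)) and Zfp36 (-0.16 (SE 0.12)) did not pass, so the lower readings did not extend to all genes of this class. The count of 4 was 0 without the control or the cytochalasin D array of number 1 or the double-drug array of number 7, and 1 without the double-drug array of number 1, the control array of number 3, or the control or cytochalasin D array of number 7.

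The largest negative difference among genes past the threshold was that of Kdm6b, a demethylase of histone H3 lysine 27. Its brightest probe set read 258, 264 and 280 in number 1, 756, 868 and 1093 in number 3 and 919, 1087 and 1335 in number 7, a difference of -1.83 (SE 0.13) with no overlap. The other two probe sets of Kdm6b did not pass: the second read 172, 176 and 168 in number 1, 161, 179 and 177 in number 3 and 180, 184 and 178 in number 7, a difference of -0.03 (SE 0.04), and the third was dim, at 6.29 to 26.95.

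Among genes past the threshold, the nuclear long non-coding RNA Malat1 came next. Its brightest probe set read 9109, 4704 and 2979 in number 1, 21860, 18150 and 15810 in number 3 and 15060, 14270 and 10480 in number 7, a difference of -1.62 (SE 0.26), and 5 of its 7 probe sets were lower. Within number 1 the control array read far above the double-drug array. Hmga2, an architectural chromatin protein, read 287, 320 and 324 in number 1, 548, 572 and 681 in number 3 and 783, 789 and 849 in number 7, a difference of -1.12 (SE 0.16). Pde4b, which degrades cAMP, differed by -1.05 (SE 0.19), and Stat5a, a transcription factor of cytokine signalling, by -0.95 (SE 0.17). Pde4b was lower on 1 of its 4 probe sets and Stat5a on 1 of its 2. Nfkbia, the inhibitor of NF-kB, read 3771, 4332 and 4880 in number 1, 6464, 6763 and 7282 in number 3 and 8437, 9786 and 8120 in number 7, a difference of -0.84 (SE 0.15), with 3 of its 5 probe sets lower. The remaining 8 of the 15 lowest genes (Mxra7, Rab10os, Nktr, Tle2, Taf15, Inppl1, Ccdc173 and Pik3cd) differed by -0.89 to -1.17.

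The highest gene was Septin10, of the septin filaments. It read 625, 674 and 637 in number 1, 216, 287 and 183 in number 3 and 227, 175 and 165 in number 7, a difference of 1.58 (SE 0.15), with both probe sets higher. Ccn4, a secreted matricellular protein, read 2139, 1433 and 1836 in number 1, 992, 591 and 876 in number 3 and 902, 588 and 730 in number 7, a difference of 1.20 (SE 0.06), again on both probe sets. Ptx3, a secreted pentraxin, read 6166, 3858 and 5193 in number 1, 2645, 2439 and 1884 in number 3 and 2030, 1476 and 1560 in number 7, a difference of 1.34 (SE 0.20). Number 1 lay clear of the other arrays of the same agent group for these 3 genes. The naming rule fixes this for all of the highest genes, so nothing is read from it.

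For some of the 15 highest genes the cytochalasin D array of number 3 was near number 1. Mgst3, a microsomal glutathione transferase, read 794, 875 and 780 in number 1, 223, 665 and 287 in number 3 and 206, 212 and 223 in number 7, a difference of 1.52 (SE 0.35). Alyref, an adaptor of mRNA export, read 1273, 1441 and 1359 in number 1, 462, 1182 and 547 in number 3 and 434, 506 and 434 in number 7, a difference of 1.27 (SE 0.28). Snd1, an RNA-binding nuclease, read 783, 881 and 774 in number 1, 343, 711 and 352 in number 3 and 318, 426 and 341 in number 7, a difference of 0.998 (SE 0.18). In all 3 genes that one array of number 3 lay well above the other 5 arrays of numbers 3 and 7. Rsl24d1, Stambpl1, Cirbp, Ppp4r3a, Med13, Rad1 and Rgmb completed the 15, at 0.99 to 1.20.

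**Figure D4:**
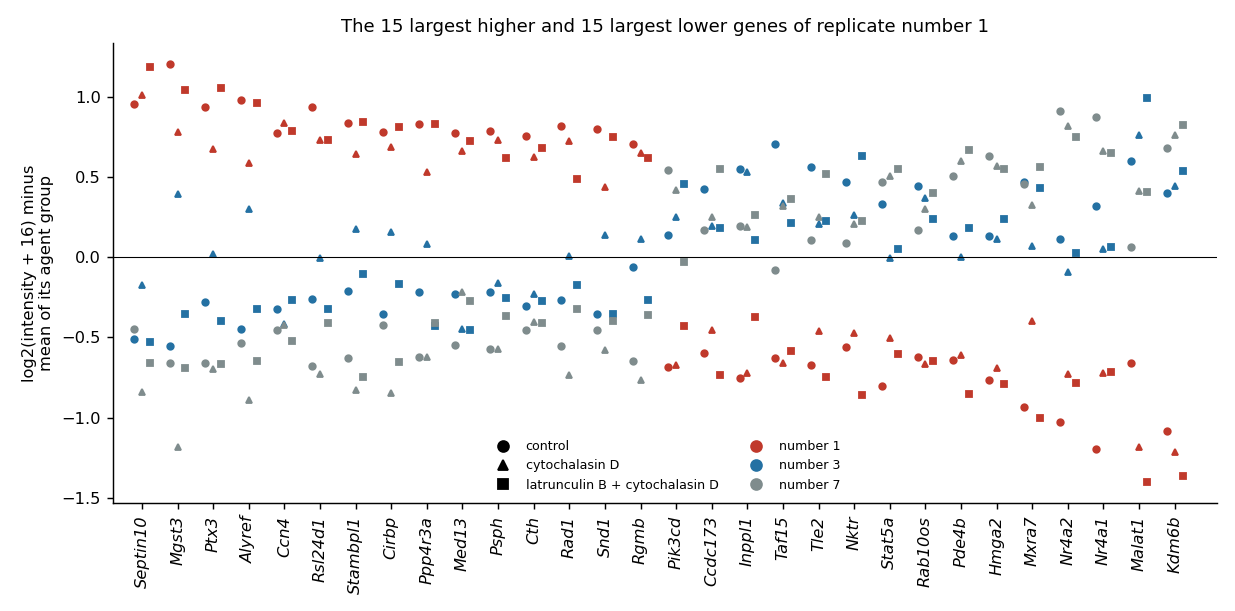
Log2(intensity + 16) of each array minus the mean of its agent group, for the 15 genes with the largest positive and the 15 with the largest negative difference of number 1; colour gives the replicate number and shape the agent group. Number 1 is on the outer side in every column, which the choice of genes fixes, and for Mgst3, Alyref and Snd1 the triangle of number 3 lies between the red points and the rest.

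Probe sets of 1 gene often disagreed. Of 5841 genes with at least 2 tested probe sets, 1933 had a probe set past the threshold, 109 had all of them past it in the same direction, and 70 had probe sets past it in both directions. Of the 30 genes with the largest differences 20 had several probe sets, and in 2, Septin10 and Ccn4, all were past the threshold in the same direction. Pabpn1, a poly(A)-binding protein, had a probe set at -0.98 (SE 0.16) and another at 0.74 (SE 0.10). Hnrnpu, a nuclear RNA-binding protein, had a probe set that read 31.7, 36.5 and 52.5 in number 1, 106, 79.9 and 89.2 in number 3 and 65.4, 101 and 122 in number 7, a difference of -0.96 (SE 0.16), while a brighter one read 4078, 4665 and 4524 in number 1, 3360, 3758 and 3273 in number 3 and 3033, 3594 and 3469 in number 7, a difference of 0.37 (SE 0.04). Genes with split probe sets were chosen for mention after their values were seen. Where the brightest probe set stands for a gene, as in the lists, its direction need not be that of the gene's other transcripts or transcript ends.

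Matrix genes and targets of the actin-regulated MRTF-SRF pathway were examined next. Of 43 extracellular matrix genes 1 was higher (2.33%) and 3 were lower (6.98%), against 5.25% and 8.59% of all genes. The higher one was Fbln2 (fibulin 2, 0.57 (SE 0.11)), and the lower ones were the collagen genes Col6a1 (-0.29), Col6a2 (-0.26) and Col5a3 (-0.58). Col1a1 (-0.28 (SE 0.11)), Col3a1 (-0.09 (SE 0.03)) and Fn1 (0.01 (SE 0.11)) did not pass. Of 34 MRTF-SRF targets 1 was higher (Myh9, 0.28, on 1 of its 5 probe sets) and 6 were lower, a share of 17.6% against 8.59% of all genes. The median of this list was -0.011, and 16 of the 34 had a positive difference. Srf itself read 152, 1208 and 639 in number 1, 209, 1400 and 896 in number 3 and 200, 1817 and 945 in number 7, a difference of -0.44 (SE 0.08), and Actn1, an actin crosslinker, read 1389, 2014 and 1552 in number 1, 1861, 2490 and 2184 in number 3 and 1900, 2720 and 2164 in number 7, a difference of -0.43 (SE 0.03). Zyx (-0.50), Tpm2 (-0.36), Pdlim7 (-0.42) and Filip1l (-0.38) were the other lower targets. Actn1 and Pdlim7 were each lower on 1 of their 3 probe sets. The smooth muscle actin gene Acta2 (0.09 (SE 0.17)) and Tagln (0.23 (SE 0.33)) did not pass.

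The other lists stand beside 5.25% of all genes higher and 8.59% lower. Of 22 interferon response genes 3 were lower (13.6%), Ifit3 (-0.50), Ifit2 (-0.22) and Gbp2 (-0.57), and none higher. Among 26 glycolysis and hypoxia genes 5 were higher (19.2%), including P4ha1, a collagen prolyl hydroxylase (0.37 (SE 0.03)), and 3 lower (11.5%). Of 24 genes of oxidative stress and metals 2 were higher (8.33%) and 3 lower (12.5%), among them Gclm, of glutathione synthesis, at -0.63 (SE 0.08). Among 20 cholesterol synthesis genes 1 was lower (5%), Fdft1 (-0.28), and Srebf1, on the lipid list, was lower at -0.41 (SE 0.04). These counts are small, and nothing about the lists is read from them.

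Some fibroblast markers had number 1 outermost in all 3 agent groups, as did 29.7% of all probe sets. Among them, Col1a1, Col3a1, Pdgfrb and Prrx1 were lower and Thy1 and Twist2 higher. On the brightest probe set of each gene none of 14 tested fibroblast markers was past the threshold, although 2 of the 6 probe sets of Prrx1 were higher, and their summed intensity was 120700 to 124200 in number 1 and 124000 to 132000 in the others; Vim and Col1a2 were bright on all 9 arrays (21940 to 23790 and 22630 to 25090), while Fap lay at background (4.81 to 4.91). Of the tested markers of leukocytes (6), epithelium (5), endothelium (1), adipocytes (2) and skeletal muscle (5) none was past the threshold on its brightest probe set, while 1 of the 2 probe sets of Krt14 was higher. Their summed intensities in number 1 and in the others were 955 to 998 and 644 to 1173, 167 to 224 and 121 to 172, 37.2 to 52.1 and 34.1 to 43.4, 2423 to 2684 and 1747 to 2943, and 38.9 to 42.3 and 41.2 to 44.3. The markers Ptprc, Krt8, Pecam1, Adipoq and Ckm lay on every array below the array medians of 7.57 to 7.84. Other members of these lists lay above the medians on every array. Among them were Lpl (1738 to 2934), Lyz1 (370.4 to 738.8), Cd14 (133.3 to 217.8), Lyz2 (65.95 to 173.7), Csf1r (40.02 to 44.78) and Eng (34.05 to 52.1). The epithelial sum was mainly Krt14, which read 160, 187 and 130 in number 1, 95.8, 81.9 and 95.1 in number 3 and 130, 123 and 120 in number 7.

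Whether number 1 differed by the same amount in each agent group is a question the choice of number 1 did not settle. In the limma F test of number by agent interaction, 0 of 27010 probe sets passed (0%), the smallest adjusted p was 0.0683, and 1965 had an unadjusted p under 0.05. This does not show that the differences were equal. Acta1, skeletal muscle actin, read 18.7, 799 and 35.4 in number 1, 20.4, 995 and 70.3 in number 3 and 18.5, 1710 and 62.3 in number 7, and the log2 difference of cytochalasin D over control was 4.55 in number 1, 4.80 in number 3 and 5.65 in number 7. For Srf that difference was 2.87, 2.65 and 3.09, and for Zfp36 it was 2.62, 2.67 and 2.48, with number 1 between the other numbers. Several actin-regulated genes had their smallest difference in number 1 and their largest in number 7. For the smooth muscle gene Tagln it was 2.47, 3.21 and 4.16 in numbers 1, 3 and 7, and the double-drug group exceeded control by 0.79, 1.76 and 2.24. For Myl9, a myosin light chain, cytochalasin D exceeded control by 3.09, 3.55 and 4.05, for Acta2 by 1.76, 2.04 and 2.44, and for Vcl (vinculin) by 0.97, 1.25 and 1.78. In numbers 1, 3 and 7, control read 719.9, 490 and 238.5 for Tagln and 172.5, 141.6 and 62.87 for Myl9. Cytochalasin D read 4051, 4654 and 4519 for Tagln and 1588, 1830 and 1287 for Myl9. For Acta2 control read 5884, 5361 and 3634, and cytochalasin D 19950, 22060 and 19810. For Vcl control read 2787, 3050 and 2548, while cytochalasin D read 5482, 7261 and 8811. For Fos cytochalasin D exceeded control by 2.75 in number 1 against 1.84 and 1.77, and for Nr4a1 by 2.49 against 1.74 and 1.80, from a lower control reading. None of these 9 genes passed the interaction test (limma adjusted p = 0.998 for each).

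**Figure D5:**
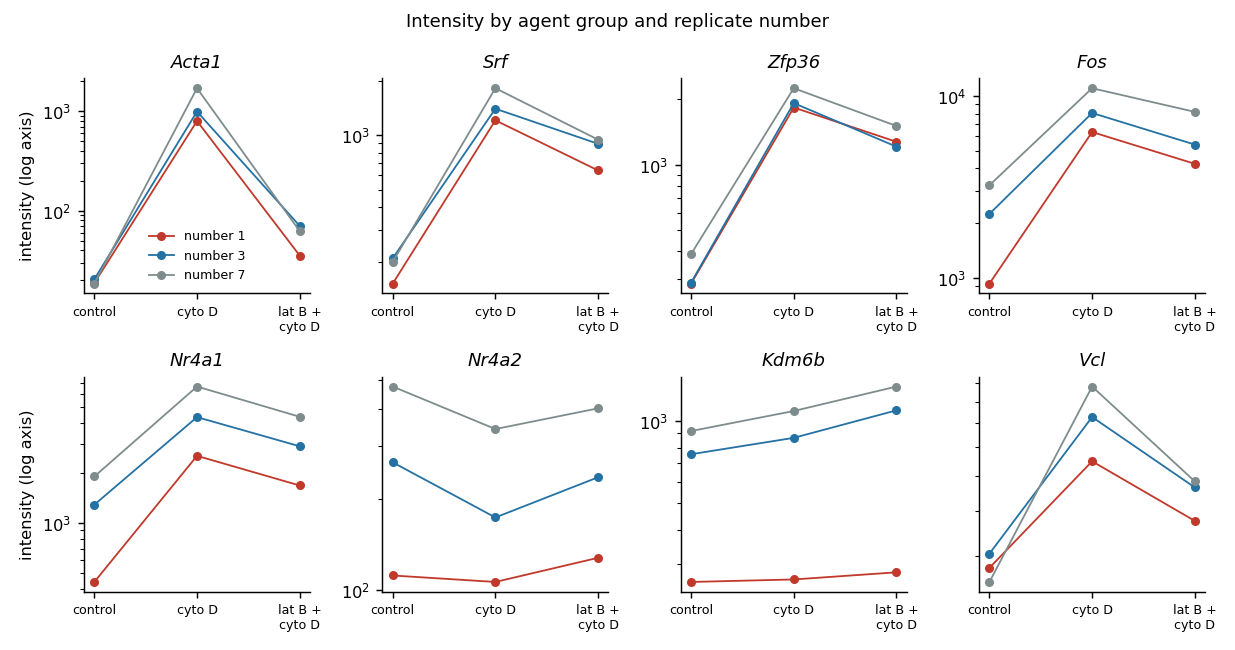
Intensity on a log axis in the 3 agent groups for 8 genes, with 1 line per replicate number and 1 array per point. The lines of Acta1, Srf and Zfp36 climb steeply from control to cytochalasin D in all 3 numbers; the line of number 1 lies lowest throughout for Fos, Nr4a1, Nr4a2 and Kdm6b.

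Numbers 7 and 3, which the rule did not set apart from each other, passed the same threshold for few probe sets. The 3 arrays of a number served as its replicates, so a low count does not show that the numbers were alike. Of 27010 probe sets 15 passed (0.0555%), 3 higher and 12 lower in number 7, and 3449 had an unadjusted p under 0.05. The calls came from 12 named genes and 1 probe set without a symbol, and the extracellular matrix list held 1 of them among its 43 tested genes. Aspn, the small proteoglycan asporin, read 408, 377 and 418 in number 3 and 128, 127 and 131 in number 7, a log2 difference of number 7 minus 3 of -1.53 (SE 0.045) and a limma adjusted p of 0.00751, lower in 3 of 3 agent groups. Meox1, a homeobox factor of somites, read 311, 310 and 300 against 54, 55.8 and 70.2 (-2.09 (SE 0.084)). The growth factor gene Igf2 read 610, 589 and 571 against 231, 230 and 238 (-1.28 (SE 0.056)), and Ogn, another small proteoglycan, 874, 816 and 799 against 390, 355 and 356 (-1.14 (SE 0.035)).

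For these genes number 1 was on the side of number 3. It read 328, 346 and 328 for Aspn, 383, 378 and 365 for Meox1, 791, 857 and 731 for Igf2 and 706, 727 and 672 for Ogn. None of the 15 calls stood in all 9 fits that left out 1 array, which gave between 0 and 10 calls. The count was 0 without the control or the double-drug array of number 3 and without the control or the cytochalasin D array of number 7. It was 1 without the double-drug array of number 1 or of number 7, 2 without the cytochalasin D array of number 3, and 5 without the control array of number 1. Against number 3 alone number 1 passed for 1888 probe sets and against number 7 alone for 5018, with 1688 in common and in the same direction. These contrasts share the arrays of number 1.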

How the data were processed

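RNA of 9 NIH 3T3 cultures was measured on Affymetrix mouse arrays, 1 array per culture. The authors deposited 1 normalized intensity for each probe set and array, on a scale that is linear judging by its range (median per array 7.57 to 7.84). MAS5 and GCRMA appear in the submitters' processing notes, but which of them gave this table is not given in the sources used here. Of 36 pairs of arrays 0 were identical. The 64 control probe sets were kept apart from the other 45037.

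Intensities were changed to log2(intensity + 16), and the 27010 probe sets above the 40th percentile of their array on at least 3 arrays entered linear models (limma 3.58.1 under R 4.3.3). The model held the agent group and a term for number 1; further fits held all 3 numbers, or the interaction of number 1 with the agent group. P-values, all two-sided, were adjusted over the tested probe sets by Benjamini-Hochberg, with a threshold of 0.05. The arrays' small number limits the precision. The fits took the arrays of 1 number as independent of each other, so their p-values and SEs do not measure the spread between numbers. The method was tested on simulated data, but the outcome is not given here and lends no support to the results above.

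Gene symbols came from the platform annotation, updated through a RefSeq gene table (34945 probe sets with 1 symbol, 932 with several, 9160 with none). A gene was represented by its brightest probe set, and probe sets with several symbols named no gene. Of 920 memberships in 35 gene lists 848 had a probe set. The naming rule took the 15 largest differences in each direction, among genes past the threshold and with number 1 outermost in all 3 agent groups, up to 5 genes per list with the smallest p, and a set of fixed genes. Further members of the lists are given as counts with examples. The arrays, the lists and the rule were chosen with earlier results of these data known.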

Additional observations from a re-analysis of the deposited data

Results flagged for a closer look

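Each control measure was examined over the 9 arrays for a value far from all others, which chance alone gives in about 1 of 20 such groups. On the middle control probe set of Tfrc, the transferrin receptor, the cytochalasin D array of number 1 read 43.5, while the other arrays of number 1 read 25.6 and 28.3 and numbers 3 and 7 read 15.9 to 20.9. The hybridization spikes, biotin-labelled RNAs that are commonly added just before hybridization, had a geometric mean of 2064.3 over 18 probe sets on the double-drug array of number 1. The other 8 arrays lay between 523 and 878.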

How the results depend on the processing

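The count of probe sets past the threshold for number 1 against 3 and 7 was 3457 and lay between 517 and 4966 when 1 array was left out. It was 1694 with no filter on dim probe sets and 1888 against number 3 alone. It was 125 without the control group, 2234 without the cytochalasin D group and 18 without the double-drug group, fits with fewer arrays. The other settings gave 2820 to 5018. For number 7 against 3, the count of 15 became 3 with no filter, 25 with quantile normalization and 0 to 10 without 1 array. For the number by agent interaction, the count of 0 became 1 with a pseudocount of 64 and 656 with no filter, of which 270 lay below the filter, and it was 0 in each of 6 fits without 1 array of number 3 or 7; the cause was not tested. Fits of the interaction without an array of number 1 were not run. The fits without 1 array for these last comparisons, and the spike ratios, were chosen after seeing the data.

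Without the double-drug group none of the mitosis, replication, ATF4, lysosome, clock or immediate-early members stayed past the threshold in the direction described. Without the control group 1 mitosis and 1 lysosome member stayed, and none of the other lists. Without the cytochalasin D group 8 mitosis, 6 replication, 9 ATF4, 6 lysosome and 4 clock members stayed, and no immediate-early member. A pseudocount of 16 left each control ratio on the same side. Differences of dim probe sets are understated by the added 16. No paired analysis was possible because the replicate number is itself what was compared.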
